A study of Mus musculus with 2 samples.

Results

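The cells described here were chosen by their transcripts as CD3+ cells with abundant granzyme A and perforin and no CD8 transcript. They were taken from 1 pooled single-cell library of spleen, with all hashtags together. Cells with fewer than 200 genes, or with mitochondrial genes above 10% of their UMIs (unique molecular identifiers, 1 for each captured transcript), were left out. A chosen cell had to hold at least 2 UMIs of Cd3d, Cd3e and Cd3g together, no UMI of Cd79a, Ms4a1, Cd8a, Cd8b1, Foxp3 or Trdc, and at least 5 UMIs of Gzma and Prf1 together. Of 16829 barcodes, all distinct and with a median of 6334 UMIs (502 to 98727), 16325 passed the filter on genes and mitochondrial UMIs, 857 met the T cell gate and 127 met the whole rule. These 127 cells, called CD3+Gzma/Prf1+ cells below, were 14.8% of the gate (exact 95% binomial interval 12.5 to 17.4) and 0.778% of the filtered cells. Their median depth was above that of NK cells and of T cells without Gzma and Prf1, and most of them carried NK cell transcripts beside T cell transcripts, so they are named by the rule and not as a cell type.

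The mice were wild-type C57BL/6, 8 weeks old, and all of them were sensitized against ovalbumin (OVA) on days 0 and 10. One set stayed untreated, another received Standard therapy with OVA in PBS on days 20, 22 and 24 and OVA in Alum on days 40 and 60, and another received a fusion protein of OVA with an antibody to DCIR2, a receptor of conventional type 2 dendritic cells, on days 20, 22 and 24. Spleens were taken on day 80, after an OVA challenge by the study's methods, and the cells were stimulated for 3 h with PMA and ionomycin, which activates T and NK cells without their receptors. They were then sorted by CD45 and CD11b, and the CD11b+ and CD11b- fractions were pooled at equal parts, so shares of all cells depend on the sort. The pool holds 3 conditions and 4 hashtags, and no source used here pairs a hashtag with a condition. The conditions were therefore not compared. With 1 pooled sample there was no replicate, no test was made, and every interval below covers counting error only.

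Cytotoxic T cells and natural killer (NK) cells share a killing machinery in which perforin opens a path for granzymes into a target cell. T cells recognise targets through the T cell receptor with its CD3 chains. NK cells lack that receptor and use activating and inhibitory receptors, several of which signal through the adaptor DAP12, the product of Tyrobp. NK receptors and Tyrobp can also appear on NKT cells, γδ T cells and activated T cells, and 2 cells caught in the same droplet give 1 barcode with the transcripts of both.

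The hashtags bear on this because a droplet with cells of different hashtags carries the barcodes of both. They are antibody-linked oligonucleotides of 15 bases whose sequence is read beside the transcripts, and these are the sequences by which cells with more than 1 hashtag were found.
Hashtag 9: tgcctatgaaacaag
Hashtag 10: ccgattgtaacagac
Hashtag 11: gcttaccgaattaac
Hashtag 12: ctgcaaatataacgg
The 6 pairs of these sequences differ at 10 to 13 of the 15 positions.

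The CD3+Gzma/Prf1+ cells were compared with 4794 NK cells (at least 2 UMIs of Ncr1 and Klre1 together and none of Cd3d, Cd3e and Cd3g), with the 621 cells of the gate without any Gzma or Prf1 UMI, called Gzma/Prf1- T cells, and with 96 cells that met the same rule but held Cd8a or Cd8b1 UMIs, called CD8+Gzma/Prf1+ T cells. The remaining 109 cells of the gate had 1 to 4 UMIs of Gzma and Prf1. At the edge of the rule there were few cells. With 3 UMIs of Gzma and Prf1 there were 7 cells, of which 57.1% held Tyrobp and 71.4% Ncr1 or Klre1. A single cell had 4, with 25077 UMIs in all and no Tyrobp, Ncr1 or Klre1. Just inside, 6 cells had 5 UMIs, with a median depth of 4892 UMIs. Among the 6, none held Tyrobp and 1 held Ncr1 or Klre1. Further in, 38 cells had 50 or more UMIs of Gzma and Prf1, and 81.6% of those held Tyrobp.

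The genes of the rule give the following levels, as a description. Gzma, a serine protease of the granules on chromosome 13 (113093825 to 113100981 in GRCm38), was at 2738 CPM (counts per 1000000 of the summed UMIs of a group) in the CD3+Gzma/Prf1+ cells and 4125 in NK cells. Prf1, the pore-forming perforin on chromosome 10 (61297833 to 61304680), was at 666 and 979 CPM. Cd3e, a signalling chain of the T cell receptor on chromosome 9 (44998740 to 45009627), was at 135 CPM and at 154 in the Gzma/Prf1- T cells. In CPM the granule genes were below the NK level, and per cell they were above it, Gzma at 34.1 against 30.9 UMIs and Prf1 at 8.28 against 7.33.

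The CD3+Gzma/Prf1+ cells were deep. Their UMIs per cell ran from 2689 to 40733 with a median of 12026 (95% interval of the median 9988 to 13302). The median was 5841 in NK cells, 7415 in Gzma/Prf1- T cells and 14392 in CD8+Gzma/Prf1+ T cells. The median depth of the CD3+Gzma/Prf1+ cells was 2.06 times that of NK cells and 1.62 times that of Gzma/Prf1- T cells, and it was 90.7% of the sum of those medians, while their mean depth was 78.2% of the sum of the means. Without the cells marked by Scrublet the median was 7467.5 UMIs (1.36 and 1.02 times those of NK cells and Gzma/Prf1- T cells filtered alike), and in the 45 cells with 1 hashtag and no Scrublet mark it was 5532 (0.968 and 0.764 times). The spread of these 45 cells was wide, with an interval of the median of 4731 to 10235 UMIs, and their mean was 9174 UMIs, against 7489 in all NK cells and 8415 in all Gzma/Prf1- T cells. As a reference of cells with transcripts of different lineages, 174 cells with at least 2 CD3 UMIs and at least 2 of Cd79a and Ms4a1 together had a median of 3.21 times that of Gzma/Prf1- T cells.

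**Figure D1:**
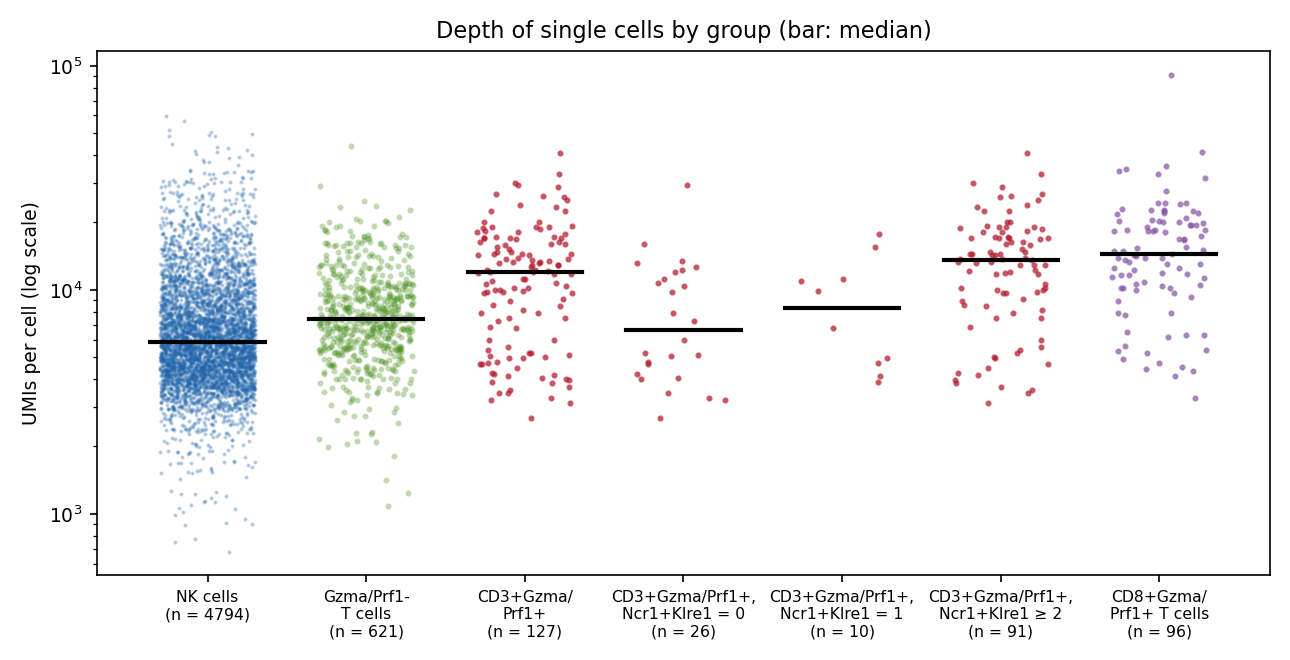
UMIs per cell on a log axis; each point is a cell, the black bar is the median, and the 127 CD3+Gzma/Prf1+ cells are also drawn by their sum of Ncr1 and Klre1 UMIs. Cells with at least 2 such UMIs have a median of 13547 UMIs, those with none 6614.5, against 5841 in NK cells and 7415 in Gzma/Prf1- T cells. A split by these UMIs also sorts cells by depth.

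Marks of doublets were frequent. Scrublet, which scores each cell against simulated pairs of cells, marked 57 of the 127 CD3+Gzma/Prf1+ cells (44.9%, 36.1 to 54.0), against 10.5% of NK cells and 4.19% of Gzma/Prf1- T cells. HTODemux found more than 1 hashtag in 48 of them (37.8%, 29.3 to 46.8), against 17.9% of NK cells and 17.9% of Gzma/Prf1- T cells. At the stricter quantile of 0.99 the shares were 12.6% (7.38 to 19.7), 5.51% (4.88 to 6.19) and 7.41% (5.47 to 9.76), and the interval of the CD3+Gzma/Prf1+ cells overlapped that of the Gzma/Prf1- T cells. No hashtag was called in 29.2% of NK cells, against 5.51% of CD3+Gzma/Prf1+ cells and 2.58% of Gzma/Prf1- T cells, and a cell without a called hashtag cannot count as one with several. The CD8+Gzma/Prf1+ T cells were alike in this, with 39.6% marked by Scrublet and 31.3% with more than 1 hashtag. At least one of the marks was found in 77 of the 127 cells. Doublets of cells with the same hashtag carry 1 hashtag and are not seen by it. The Scrublet mark rests on transcripts, and a simulated pair of a T cell and an NK cell also holds CD3, Gzma and Prf1. It is therefore not independent of the rule, and how often a single cell with these genes is marked was not tested. A group of 45 cells had 1 hashtag and no Scrublet mark, and the other 5 were negative for hashtags and unmarked.

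**Figure D2:**
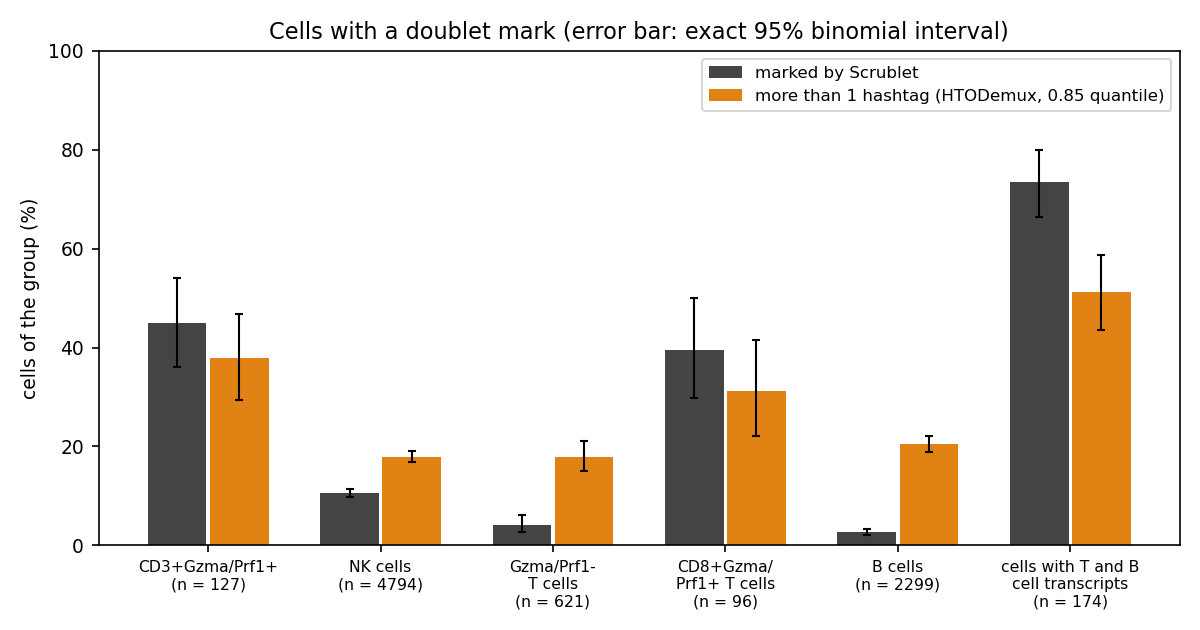
Percent of each group marked by Scrublet (dark grey) and with more than 1 hashtag (orange); error bars are exact 95% binomial intervals. The CD3+Gzma/Prf1+ cells stand at 44.9% and 37.8%, against 10.5% and 17.9% in NK cells, and the cells with T and B cell transcripts are higher still.

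As a mean over all depths, both kinds of transcript were present at about the amount found in the cell type that carries them. The 20 genes of the fixed T cell identity list (surface and signalling genes such as Cd5, Cd28, Lat and Themis) gave 39.1 UMIs per CD3+Gzma/Prf1+ cell, which was 0.998 times the mean of Gzma/Prf1- T cells and 4.33 times that of NK cells. The 22 genes of the NK receptor list gave 35.3 UMIs per cell, which was 1.05 times the mean of NK cells and 9.13 times that of Gzma/Prf1- T cells. Per cell, as a mean over all depths, the T list was at the T cell amount and the NK list at the NK cell amount. In the depth window described below, 36 CD3+Gzma/Prf1+ cells held 13.4 T list UMIs per cell, against 30.3 in Gzma/Prf1- T cells. The same 36 cells held 20.5 NK list UMIs per cell, against 30.0 in NK cells of the window. Depths within the window were not fully equal. In CPM the T list was at 2913 against 5404 and the NK list at 4466 against 5990. The 91 deeper CD3+Gzma/Prf1+ cells held 49.2 T list and 41.2 NK list UMIs per cell. At least 5 UMIs of each side were found in 94.5% of the CD3+Gzma/Prf1+ cells (T side: T cell identity, Trac and Trbc2; NK side: NK receptors, Tyrobp and Fcer1g), in 96.9% of CD8+Gzma/Prf1+ T cells, in 69.8% of NK cells and in 27.7% of Gzma/Prf1- T cells.

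**Figure D3:**
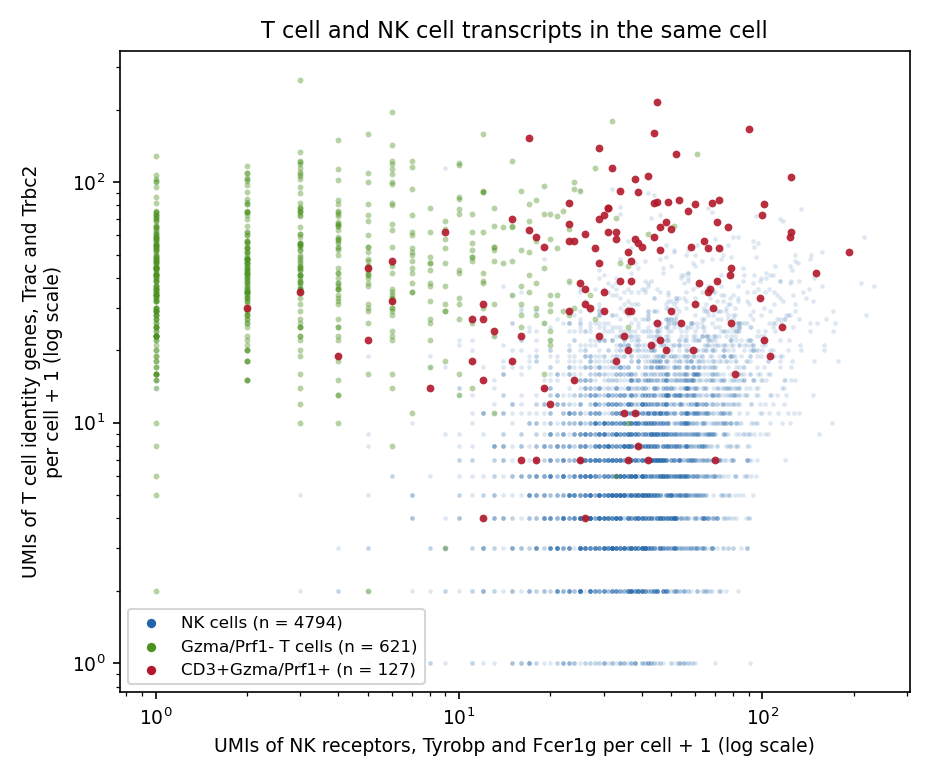
UMIs of T cell identity genes with Trac and Trbc2 (vertical) against UMIs of NK receptors with Tyrobp and Fcer1g (horizontal) in each cell, both plus 1 on log axes. The CD3+Gzma/Prf1+ cells, with medians of 41 and 36 UMIs, lie at the height of the Gzma/Prf1- T cells (median 42 T side UMIs) and at the horizontal position of the NK cells (median 39 NK side UMIs).

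In CPM, most genes that separated NK cells from T cells lay between both. Of 2354 genes that differed by at least 2-fold between NK cells and Gzma/Prf1- T cells and had a UMI in the CD3+Gzma/Prf1+ cells, the level in the latter lay between the levels of both groups for 1882 (79.9%). On a line from the T cell level (0) to the NK level (1), the median gene stood at 0.533 among the 1605 NK-high genes and at 0.546 among the 749 T-high genes. Of 11830 genes, 126 (1.07%) were at least 2-fold above both groups and 585 (4.95%) at least 2-fold below both.

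Genes of the receptor of αβ T cells were abundant. Trac, the constant region of the α chain on chromosome 14 (54220521 to 54224206), was found in 82.7% of CD3+Gzma/Prf1+ cells at 258 CPM. It was at 379 CPM in 83.1% of Gzma/Prf1- T cells and at 30.0 CPM in 15.1% of NK cells. Trbc2, a constant region of the β chain, was at 527 CPM, against 697 in Gzma/Prf1- T cells and 98.0 in NK cells. All 127 cells held a UMI of Trac, Trbc1 or Trbc2, as did 75.3% of NK cells, of which 39.1% held Trac or Trbc2. Tcrg-C1 and Trav11, of γδ and invariant NKT receptors, had no UMI in any of these groups and so mark nothing here. Others of the list had few UMIs in the 127 cells: Traj18, of the invariant NKT receptor, 5 (3.17 CPM, against 0.529 in NK cells and 8.80 in Gzma/Prf1- T cells), Tcrg-C2 3, Tcrg-C4 2 and Trgv2 3. Trdv4, a variable gene of the δ chain, was at 8.86 CPM, against 14.6 in NK cells and 0.191 in Gzma/Prf1- T cells.

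Against NK cells, 4.51% of the 11590 genes compared were at least 2-fold higher in the CD3+Gzma/Prf1+ cells and 7.93% at least 2-fold lower. A gene was compared with at least 50 UMIs over both groups. Since the rule chose the cells by CD3, Gzma and Prf1, these counts and those of the next comparisons describe the cells and test nothing. Of the 19 T cell identity genes compared, 10 were at least 2-fold higher and none at least 2-fold lower (median log2 ratio 1.01, against -0.08 over all genes compared). Lat, the adaptor that links the T cell receptor to its signalling chain, on chromosome 7 (126363824 to 126369570), was at 114 against 3.29 CPM. Themis, a regulator of T cell receptor signalling in the thymus, was at 472 against 13.7 CPM. Cd5, a brake on that signalling, was at 88.6 against 3.98 CPM, and Bcl11b, a transcription factor that keeps T cell identity, at 72.2 against 3.26. These genes of T cell signalling stood far above the NK level, while Skap1 (1.29 times) and Ccr7 (0.952 times) differed little.

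Among all genes outside the rule, the 8 with the highest ratio to NK cells were Tnfrsf4, Cd40lg, Il21, Gpm6b, Spry1, Nrn1, Lat and Themis. Tnfrsf4, the costimulatory receptor OX40, was at 437 CPM against 5.88 in NK cells. Cd40lg, by which helper T cells signal to B cells, was at 234 against 3.76 CPM. Il21, a helper T cell cytokine, was at 60.8 against 1.06 CPM in 15.7% of the cells. The Gzma/Prf1- T cells held more than the CD3+Gzma/Prf1+ cells of Tnfrsf4 (682 CPM) and Cd40lg (390 CPM).

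The 8 genes with the lowest ratio to NK cells included genes of other lineages. S100a8 and S100a9, calcium-binding proteins of neutrophils, were at 15.8 and 25.3 CPM against 531 and 636 in NK cells, and Igkc and Ighm, immunoglobulin chains of B cells, were at 86.1 and 24.7 against 809 and 141. The other 4 were Gm20663, Arhgap24, Ifitm10 and Bcorl1. The rule removed cells with Cd79a or Ms4a1 from the CD3+Gzma/Prf1+ cells and not from the NK cells, of which 4.67% held Cd79a. S100a8 was found in 17.3% of CD3+Gzma/Prf1+ cells and 16.0% of NK cells, and a single NK cell held 5292 of its 19069 UMIs in that group.

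Against Gzma/Prf1- T cells, 5.09% of the 8039 genes compared were at least 2-fold higher in the CD3+Gzma/Prf1+ cells and 2.64% at least 2-fold lower. Of the 18 NK receptor genes compared, 16 were at least 2-fold higher and none lower (median log2 ratio 3.50, against 0.04 over all genes compared). Klrb1c, which encodes NK1.1, on chromosome 6 (128778485 to 128789215), was at 56.3 against 0.957 CPM. Klra4, of the Ly49 receptors for class I molecules, was at 278 against 3.06 CPM. Klrk1, the activating receptor NKG2D, was at 594 against 54.0 CPM and Klrd1, its relative CD94, at 101 against 19.3. The exceptions were Cd160 and Cd226, at 57.0 and 47.5 CPM against 67.0 and 53.4. Genes of the Klra and Klrc families are close copies, and reads may be shared among them.

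The 8 genes with the highest ratio to Gzma/Prf1- T cells were Serpinb9b, Klra4, Adamts14, Ncr1, Itga2, Klrb1c, Klra8 and Eya1. Itga2, the integrin CD49b by which NK cells are often sorted, was at 307 against 5.17 CPM. Ncr1, the NK receptor NKp46, on chromosome 7 (4337724 to 4345164), was at 122 against 1.91 CPM. Serpinb9b, of the granzyme inhibitor family, was at 93.7 against 0.765 CPM in 19.7% of the cells. The 8 with the lowest ratio were Mboat1, S100a8, S100a9, Tesc, Prickle1, Izumo1r, Kctd4 and Actn1. Izumo1r, the folate receptor FR4 of follicular helper and regulatory T cells, was at 12.03 against 38.8 CPM.

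The adaptors of both lineages were present together. Tyrobp, on chromosome 7 (30413760 to 30417585), was found in 73.2% of CD3+Gzma/Prf1+ cells at 279 CPM, in 89.2% of NK cells at 583 CPM and in 4.51% of Gzma/Prf1- T cells at 27.7 CPM. B cells (at least 2 UMIs of Cd79a and Ms4a1, none of CD3, Ncr1 or Klre1), taken as background, held it in 16.7% at a median of 9296 UMIs per cell, above the Gzma/Prf1- T cells and far below the CD3+Gzma/Prf1+ cells. Trac or Trbc2 together with Tyrobp was found in 88 of the 127 cells (69.3%), against 3.86% of Gzma/Prf1- T cells and 35.9% of NK cells. Fcer1g, the other adaptor of NK receptors, was at 364 CPM, against 725 in NK cells and 27.0 in Gzma/Prf1- T cells. Zap70, the kinase of the T cell receptor, was at 132 CPM, against 64.4 and 190.

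**Figure D4:**
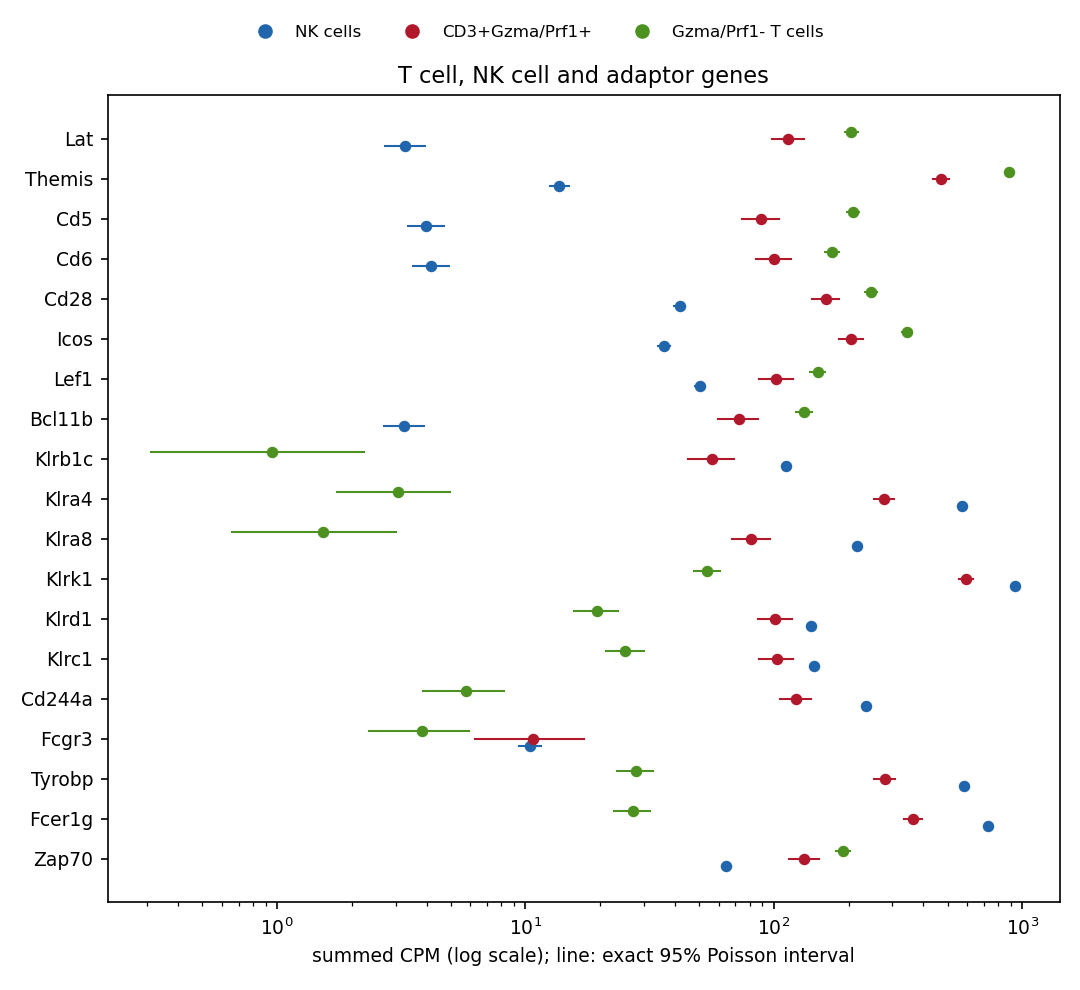
Summed CPM on a log axis of T cell identity genes (Lat to Bcl11b), NK receptors (Klrb1c to Fcgr3) and adaptors (Tyrobp to Zap70) in NK cells (blue), CD3+Gzma/Prf1+ cells (red) and Gzma/Prf1- T cells (green), with exact 95% Poisson intervals. Red lies between blue and green except that it meets blue for Fcgr3.

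Depth raises the share of cells with a UMI, so the shares were also taken after each cell was thinned to 1000 UMIs. At that depth Tyrobp was found in 26.0% of CD3+Gzma/Prf1+ cells, 44.5% of NK cells, 1.29% of Gzma/Prf1- T cells and 2.52% of B cells. Trac was found in 24.4%, 2.84%, 30.9% and 0.522% of the same groups, and Ncr1 or Klre1 in 24.4%, 51.0% and 1.45% of the first 3 groups. For Tyrobp and Trac the order of the groups was that of the CPM, and 8 NK cells were too shallow to be thinned. The NK cells were chosen by Ncr1 and Klre1, so their higher share for these genes was set by the choice.

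Gzmb, Nkg7, Ccl5 and Xcl1 stood closer to the NK level than to that of Gzma/Prf1- T cells, and Il2 stood closer to the T cell level. Gzmb, granzyme B, was at 4253 CPM, against 5649 in NK cells and 202 in Gzma/Prf1- T cells. Nkg7, a granule membrane protein, was at 972, 1030 and 94.9 CPM. Of the 8 granule genes and death ligands compared with Gzma/Prf1- T cells, 4 were at least 2-fold higher and none lower, beside 5.09% and 2.64% of all genes compared. Of the 10 compared with NK cells, 1 was at least 2-fold higher and 1 lower, beside 4.51% and 7.93% of all genes. Ifng, interferon-γ, was at 1842 CPM in the CD3+Gzma/Prf1+ cells, 1369 in NK cells and 1372 in Gzma/Prf1- T cells. Il2, a T cell growth factor, was at 1095 CPM, against 35.1 in NK cells and 1251 in Gzma/Prf1- T cells. It was found in 26.8% of the CD3+Gzma/Prf1+ cells and in 38.8% of the Gzma/Prf1- T cells. A single cell held 508 of the 1729 Il2 UMIs of the former and 1213 of the 6539 of the latter. Ccl5 and Xcl1, chemokines of cytotoxic lymphocytes, were at 5726 and 5804 CPM, against 8862 and 8556 in NK cells and 925 and 1115 in Gzma/Prf1- T cells. Il17a had no UMI.

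Among transcription factors, those of NK and of T cells were present side by side. Eomes, a factor of NK and memory CD8 T cells, was at 99.4 CPM, against 125 in NK cells and 17.99 in Gzma/Prf1- T cells. Tox, of exhausted and developing T cells, was at 463 CPM, against 97.1 and 821. Zbtb16, the factor PLZF of NKT cells, was at 34.8, 34.3 and 38.5 CPM, and it was found in 18.1%, 12.2% and 5.15% of the cells, with up to 23 UMIs in a single Gzma/Prf1- T cell. Of the 13 factors compared with NK cells, 3 were at least 2-fold higher and 1 lower, and of the 12 compared with Gzma/Prf1- T cells, 4 were higher and none lower. Of all genes compared, 4.51% were higher and 7.93% lower than in NK cells and 5.09% and 2.64% than in Gzma/Prf1- T cells, so 1 lower factor of 13 is near the share of all genes.

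Cd4 was found in 17 of the 127 cells (13.4%, at 18.4 CPM), against 19.3% of Gzma/Prf1- T cells at 38.7 CPM, 0.125% of NK cells and 1.04% of CD8+Gzma/Prf1+ T cells. The 17 cells had a median of 14503 UMIs. Scrublet marked 9 of them, 9 held more than 1 hashtag (52.9% in each case), and 14 held Ncr1 or Klre1. In the other 110 cells neither CD4 nor CD8 transcripts were seen, which at these low levels limits only cells with a UMI and not cells with the protein.

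Against CD8+Gzma/Prf1+ T cells, 1.57% of the 6451 genes compared were at least 2-fold higher in the CD3+Gzma/Prf1+ cells and 1.41% at least 2-fold lower. Of the 19 NK receptor genes compared, 5 were at least 2-fold higher and none lower, and of the 19 T cell identity genes 1 was higher (Cd40lg, 234 against 40.8 CPM) and 1 lower (Themis, 472 against 1074 CPM). The 8 genes with the highest ratio were Ptprk, Nrn1, Tnfrsf4, Gpm6b, Il21, Itgb8, Cd40lg and Ccl1. The 8 with the lowest ratio were S100a8, S100a9, Smyd1, Pclaf, Cxcl10, Cxcr6, Syne1 and Anxa1. Of the 2538 S100a8 UMIs of the CD8+ cells, 2517 lay in 1 cell. Cxcr6, a homing receptor of tissue and effector CD8 T cells, was at 34.8 against 175 CPM, and Smyd1, a methyltransferase, at 6.33 against 47.8. Tyrobp was at 279 against 189 CPM, so the CD8+ cells held it as well, and 68.8% of them held Ncr1 or Klre1.

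The rule left out cells with Trdc, the δ chain constant region, and these were counted too. Of 180 cells that met the rest of the rule, 53 (29.4%, 22.9 to 36.7) held a Trdc UMI. Among cells of the gate without Gzma and Prf1 it was 54 of 675 (8.00%, 6.07 to 10.3), and among NK cells 1121 of 4794 (23.4%, 22.2 to 24.6). The interval of the CD3+ cells with Gzma and Prf1 thus held the share of NK cells and lay above that of the cells without Gzma and Prf1, at depths that were not matched.

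The CD3+Gzma/Prf1+ cells were not uniform in NK transcripts. Ncr1 or Klre1 was found in 101 of 127 (79.5%, 71.5 to 86.2), against 6.92% of Gzma/Prf1- T cells. With at least 2 such UMIs, 91 cells had a median of 13547 UMIs, 2.32 times that of NK cells and 1.83 times that of Gzma/Prf1- T cells. With 1 such UMI, 10 cells had a median of 8324. With none, 26 cells had a median of 6614.5, 0.892 times that of Gzma/Prf1- T cells, and 12 of the 26 carried a doublet mark. Since depth raises the share of cells with a UMI, a split by these UMIs also sorts the cells by depth. How much of the difference in depth comes from the split was not tested.

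Between the 26 cells without Ncr1 and Klre1 and the 91 with at least 2 UMIs, 2.12% of 4531 genes were at least 2-fold higher in the former and 6% at least 2-fold lower, from counts of 221681 and 1268260 UMIs. Of 18 other NK receptor genes compared, none was at least 2-fold higher and 9 were at least 2-fold lower; Ncr1 and Klre1, which made the split, are NK genes themselves. Of 19 T cell identity genes 5 were higher and none lower. Icos, a costimulatory receptor, was at 438 against 163 CPM, and Ctla4, an inhibitory receptor, at 695 against 263. Il10, the regulatory cytokine the study follows, was at 180 against 33.1 CPM, in 7 of 26 and 11 of 91 cells, with at most 13 and 15 UMIs in a cell. Over all 127 cells Il10 was at 51.9 CPM in 14.2%. It was at 8.49 CPM in NK cells, 59.5 in Gzma/Prf1- T cells, 82.9 in CD8+Gzma/Prf1+ T cells and 80.5 in B cells. Granule genes remained in the 26 cells, Gzmb at 2779 against 4575 CPM and Nkg7 at 1033 against 1006. Tyrobp was at 153 against 300 CPM, and Zbtb16 had no UMI in the 26 cells. Rgs6 had the highest ratio, from 103 UMIs in 3 cells, and so rests on those 3.

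The cells were also divided by depth. A window from the shallowest CD3+Gzma/Prf1+ cell to the median of the Gzma/Prf1- T cells (2689 to 7415 UMIs) held 36 CD3+Gzma/Prf1+ cells, 3069 NK cells and 297 Gzma/Prf1- T cells. It also held 15 CD8+Gzma/Prf1+ T cells, of which none was marked by Scrublet and 4 (26.7%) held more than 1 hashtag, with 12.4 UMIs of NK receptors and 25.9 of T cell identity per cell. The window was set after the depths had been seen. Median depths within it were 4555.5 UMIs in the CD3+Gzma/Prf1+ cells, 4897 in NK cells and 5658 in Gzma/Prf1- T cells. Of the 36 cells, 2 (5.56%) were marked by Scrublet and 5 (13.9%) held more than 1 hashtag, against 1.01% and 11.5% of NK cells and 0.673% and 14.8% of Gzma/Prf1- T cells in the window. Of the 91 deeper CD3+Gzma/Prf1+ cells, 60.4% were marked by Scrublet and 47.3% held more than 1 hashtag. The doublet marks were more frequent in the cells above the window. Scrublet marks were also rarer among NK cells of the window (1.01%) than among all NK cells (10.5%), and the part of depth in that difference was not tested.

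In the window, Trac and Trbc2 were at or above the level of Gzma/Prf1- T cells, and Gzmb and Nkg7 above that of NK cells. Trac was at 526 CPM in the 36 cells, against 438 in Gzma/Prf1- T cells (1.20 times, 0.950 to 1.501) and 31.2 in NK cells. Gzmb was at 10026 CPM, against 8282 in NK cells (1.21 times, 1.15 to 1.27) and 245 in Gzma/Prf1- T cells. Nkg7 was at 2466 CPM, 1.76 times the NK level. Srgn, the granule proteoglycan, was at 1.36 times (1.27 to 1.45) the NK level, while Cst7, cystatin F, was at 0.466 times (0.276 to 0.737) and Ctsw, cathepsin W, at 0.767 times, with an interval of 0.367 to 1.41 that spans equal levels. Trbc1, the other β chain constant region, was at 272 CPM, against 264 in NK cells and 672 in Gzma/Prf1- T cells. The 91 deeper cells had Trac at 227, Gzmb at 3578 and Nkg7 at 798 CPM. The rule sets a fixed number of CD3 and of Gzma and Prf1 UMIs, which is a higher CPM in a shallow cell, so these levels are a description.

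Other genes in the 36 cells stood apart from both groups or between them. Itga1, the integrin CD49a of tissue-resident NK cells and T cells, was at 169 CPM in 8 of 36 cells, with at most 11 UMIs in a cell, against 7.17 in NK cells and 6.61 in Gzma/Prf1- T cells (23.6 and 25.6 times). Cd160, a receptor of cytotoxic lymphocytes, was at 103 CPM, against 6.32 and 24.0, whereas over all depths it was below the Gzma/Prf1- T cells (57.0 against 67.0 CPM). Klra7 was at 792 CPM, against 420 and 12.02. Of the other listed Klra genes, Klra1 was at 2.52 times the NK level, while Klra3 (0.584 times), Klra4 (0.240), Klra8 (0.126) and Klra9 (0.592) were below it. Tbx21, the factor T-bet, was at 175 CPM, against 77.1 and 91.9, whereas over all depths the levels were close (91.8, 82.8 and 79.8 CPM). By contrast Tyrobp, at 290 CPM in 16 of 36 cells, was 0.391 times the NK level and 12.4 times the T cell level, and Cd5, at 48.3 CPM in 4 cells, was below the 278 CPM of Gzma/Prf1- T cells. Over lists, the 36 cells held 20.5 UMIs of NK receptors per cell, against 30.0 in NK cells and 2.12 in Gzma/Prf1- T cells, and 13.4 of T cell identity, against 6.15 and 30.3. Cd4 was found in 2 of them.

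**Figure D5:**
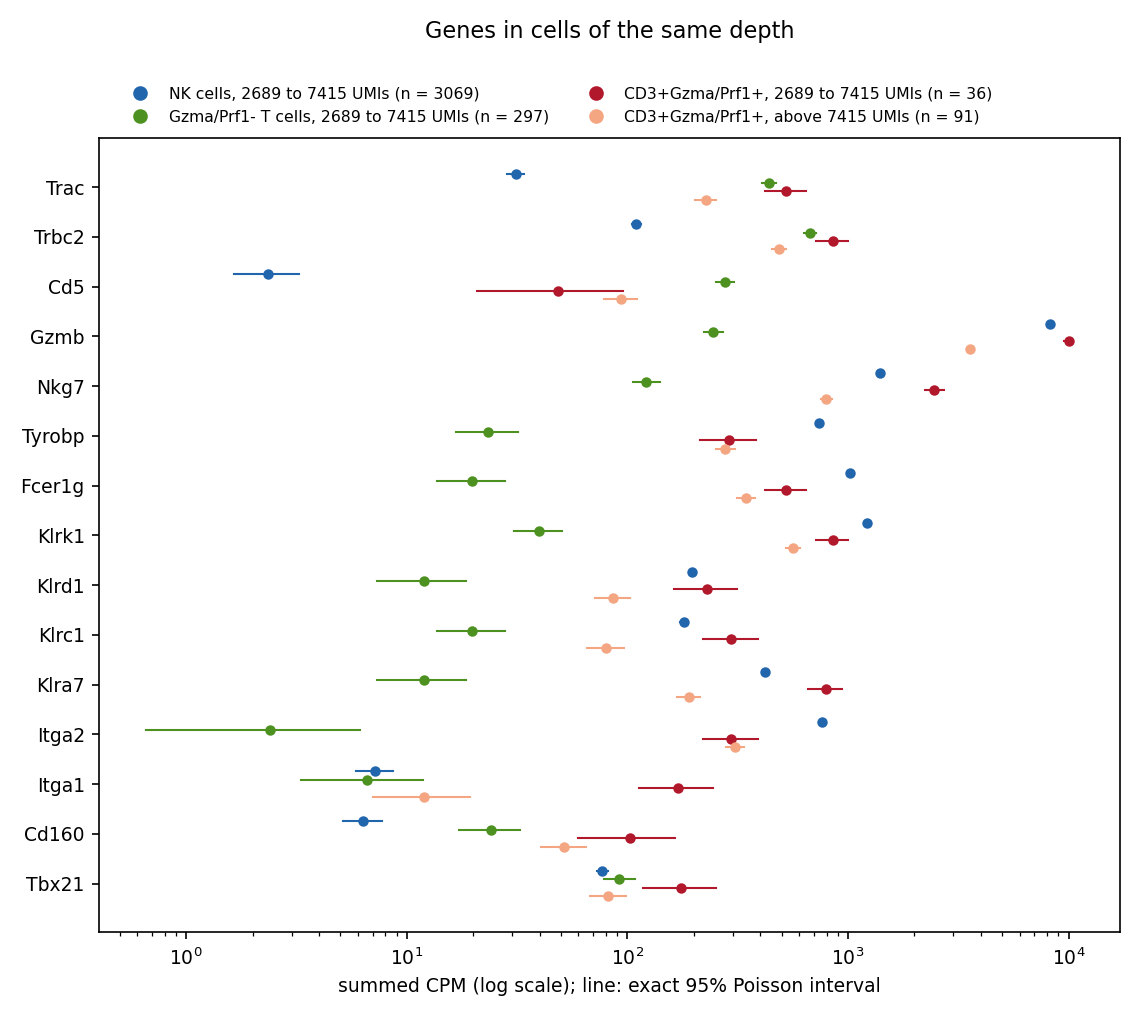
Summed CPM on a log axis in NK cells (blue), Gzma/Prf1- T cells (green) and CD3+Gzma/Prf1+ cells (red) within 2689 to 7415 UMIs, and in CD3+Gzma/Prf1+ cells above 7415 UMIs (light red), with exact 95% Poisson intervals. In the window red lies at or above green for Trac and Trbc2 and above blue for Gzmb and Nkg7, stands above both for Itga1, Cd160 and Tbx21 (over all depths Cd160 is below green and Tbx21 close to both), and lies between them for Tyrobp, Fcer1g and Itga2.

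Markers of other lineages were also counted in the 127 cells. Of the 11 B cell markers 7 had a UMI, and those without one included Cd79a and Ms4a1, barred by the rule, and Cd22. Their summed level was 1220 CPM, against 2336 in NK cells and 738 in Gzma/Prf1- T cells, and the most abundant was Cd74, of class II antigen presentation, at 684 CPM in 29.9% of the cells. Of the 8 myeloid markers 7 had a UMI and C1qa had none. Their summed level was 182 CPM, against 1368 and 334, and 73 of the 78 UMIs of Lyz2, the lysozyme of myeloid cells, lay in 1 cell. The 2 erythroid markers had no UMI, and the 2 basophil markers were at 1.90 CPM together. Igkc was found in 30.7% of the cells, against 21.8% of NK cells and 19.6% of Gzma/Prf1- T cells, and after thinning to 1000 UMIs in 6.30%, 6.92% and 5.31%. The part of free RNA in these levels was not tested.

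The remaining lists held homing, checkpoint, early response and cell cycle genes, and their counts stand beside 4.51% higher and 7.93% lower of all genes against NK cells, 5.09% and 2.64% against Gzma/Prf1- T cells, and 1.57% and 1.41% against CD8+Gzma/Prf1+ T cells. Of the 9 homing genes compared with NK cells 4 were at least 2-fold higher and 1 lower, and of the 8 compared with Gzma/Prf1- T cells 4 were higher and 1 lower. Of the checkpoint receptors, 2 of 4 were at least 2-fold higher than in NK cells and 1 of 5 than in Gzma/Prf1- T cells, with none lower, and against CD8+Gzma/Prf1+ T cells 1 of 5 was higher and 1 lower. Ctla4, an inhibitory receptor of activated T cells, was at 315 CPM, against 12.8 in NK cells and 402 in Gzma/Prf1- T cells. Tigit, another inhibitory receptor, was at 50.01 CPM, against 48.5 and 24.3, and Havcr2, which encodes TIM-3, was at 54.4 CPM, against 196 in CD8+Gzma/Prf1+ T cells. Of the 10 early response genes, which stimulation induces, 1 was at least 2-fold higher than in NK cells and none differed by 2-fold from Gzma/Prf1- T cells. Of the 4 cell cycle genes none differed by 2-fold from either group, while 3 were at least 2-fold lower than in CD8+Gzma/Prf1+ T cells.

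By the hashtag with the highest signal, 21 of the 127 cells fell to hashtag 9, 61 to hashtag 10, 24 to hashtag 11 and 21 to hashtag 12. They were 16.0%, 18.8%, 10.7% and 11.9% of the gate in the same order. Their median depths were 10746, 10635, 13001.5 and 12212 UMIs. Tyrobp was found in 61.9%, 72.1%, 83.3% and 76.2%, and Ncr1 or Klre1 in 71.4%, 85.2%, 75% and 76.2%. These values take in cells with several hashtags or with none called. Among cells with 1 hashtag called there were 9, 38, 13 and 12 in the same order. They were 10.3%, 14.6%, 7.34% and 9.45% of such cells of the gate. The medians of these cells were 13717, 8555.5, 14503 and 12067.5 UMIs. The cells, their depth and their NK transcripts were thus present under each hashtag, and hashtag 10 held the largest number. Since a hashtag is not tied to a condition or a mouse here, these values are given as a description.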

How the data were processed

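Spleen cells of 1 multiplexed pool were profiled as a gene expression and a hashtag library (10x Genomics 3′ v3.1). The authors made the deposited UMI counts, which were not normalized, with Cell Ranger against GRCm38. Its version is 7.2.0 in the submitters' processing notes, while the matrix itself names 7.0.0. CPM were computed here from counts summed over the cells of a group, which weights deep cells more. The rule, the gene lists and the comparison groups were chosen with earlier results of these data known. Intervals of 95% are exact binomial (Clopper-Pearson) for shares, exact Poisson for CPM and conditional binomial for ratios. Genes were compared with at least 50 UMIs over both groups, and a 0 was set to 3 UMIs over the group. The named genes were those of the fixed lists and, for each comparison, the 8 highest and 8 lowest ratios among genes detected in at least 10% of the cells of the higher group, without the rule's genes. The depth window and the combined use of both doublet marks were added after the data had been seen. Doublets were marked, and not removed, with Scrublet (scanpy 1.11.5, expected rate 0.1), which marked 8.18% of cells, and with HTODemux (Seurat 5.3.0, positive quantile 0.85) in R 4.3.3. Python 3.11.15, NumPy 2.4.6, SciPy 1.17.1, pandas 2.3.3 and matplotlib 3.10.9 were used. The computation of ratios was tested on simulated Poisson counts of genes well detected in both groups. Zeros set to 3 UMIs, genes near the minimum and counts held mostly by 1 cell were not covered by it. Reads of close copies in the Klra and Klrc families may be shared. Loci come from GENCODE and hashtag sequences from the deposited feature reference. Sequencing reads were not used here. Some genes of the lists are counted but not reported by name here.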

Additional observations from a re-analysis of the deposited data

How the results depend on the processing

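Of 15 results under 224 alternative values, 181 moved by less than their counting interval or by less than 1.5 times for counts, and 43 moved more. Without the cells marked by Scrublet, 70 CD3+Gzma/Prf1+ cells were left (9.19% of the gate), with a median of 7467.5 UMIs, 1.36 times that of NK cells and 1.02 times that of Gzma/Prf1- T cells, Tyrobp in 64.3%, more than 1 hashtag in 28.6% and 1045 genes past 2-fold against Gzma/Prf1- T cells. Without cells of several hashtags, 79 were left (11.7%) and Tyrobp was at 231 CPM. Without cells holding Ncr1 or Klre1, 26 were left (3.03%), with a median of 6614.5 UMIs (1.13 and 0.892 times). Tyrobp was found in 42.3% of them at 153 CPM, and 10 NK receptor genes were at least 2-fold above Gzma/Prf1- T cells. Past 2-fold were 4000, 1235 and 486 genes against NK cells, Gzma/Prf1- T cells and CD8+Gzma/Prf1+ T cells. A gene without a UMI in the 26 cells was set to 3 UMIs, which is 13.5 CPM in this group. Against NK cells such a gene can count as higher without being detected, so the count of 4000 is not one of detected differences alone. With 1 hashtag and no Scrublet mark, an alternative chosen after seeing the data, 45 were left (7.44%), with a median of 5532 UMIs (0.968 and 0.764 times), Tyrobp in 62.2% at 247 CPM, Cd4 in 4.44%, 6 T cell identity genes at least 2-fold above NK cells and 1216 genes past 2-fold against Gzma/Prf1- T cells. With at least 3 CD3 UMIs Tyrobp was at 222 CPM, and with at least 10 Gzma and Prf1 UMIs Ncr1 or Klre1 was found in 86.2%. Thinned to 1000 UMIs, Tyrobp was found in 26.0%, Ncr1 or Klre1 in 24.4% and Cd4 in 3.15%. With a gene minimum of 20 UMIs, 2312, 1219 and 583 genes were past 2-fold. A lower minimum enlarges the set of genes compared. Against NK cells, a gene without a UMI in the 127 cells can then also count as higher, from the set 3 UMIs. The numbers of genes compared under the alternatives are not given here, so the counts of genes past 2-fold cannot be read as shares. With the HTODemux quantile of 0.99, 12.6% held more than 1 hashtag. Leaving out each hashtag in turn gave 66 to 106 cells and 12.4 to 16.3% of the gate, lowest without hashtag 10 in both cases. By construction the alternatives leave fewer cells or change the genes compared. The part of undetected genes in the counts was not determined, and other causes of these changes were not tested. No paired analysis was possible because the single pool has no replicates. With 127 cells, shares carry intervals of several percentage points, and levels near 1 UMI per group cannot be compared.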
